A study of Mus musculus with 14 samples.

Results

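The tumour necrosis factor (TNF) superfamily and its receptors were followed in RNA from mouse liver. Members were taken by gene symbol from protein-coding genes. Every Tnfsf or Tnfrsf gene with a number after the stem was included, together with Tnf, Lta, Ltb, Ltbr, Fas, Fasl, Cd40, Cd40lg, Cd27 and Cd70. The rule found 41 genes among 51912 gene rows, of which 17 encode ligands and 24 encode receptors. No measured value entered the choice.

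The study sequenced total RNA from pieces of the left lobe of the liver in untreated mice aged 20 weeks. In 5 livers with AIH, the mice carried floxed Tet2 (Tet2fl/fl) with vav cre and had developed autoimmune hepatitis spontaneously. In 5 asymptomatic livers, the mice carried the same Tet2fl/fl vav cre+ alleles and were symptom free. The 4 control livers came from healthy littermates, Tet2fl/fl cre-, so all 14 mice had floxed Tet2 and the control mice lacked cre. TET2 is an enzyme that oxidises methylated cytosine in DNA, and the Vav promoter is active in blood-forming cells and their progeny. Liver cells outside that lineage are therefore not the intended target of the deletion. The labels do not number the animals, so p-values measure the spread between these libraries.

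TNF family ligands are mostly trimeric proteins on the surface of leukocytes, some of which are cut loose and act at a distance. Their receptors recruit TRAF adaptors and switch on NF-kB, and a subset carries a death domain and can start apoptosis or necroptosis. In the liver, TNF and FAS ligand are known as triggers of hepatocyte death. Other pairs are known for T cell costimulation, B cell survival, lymphoid tissue formation and tissue repair.

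The 14 libraries held 15.97 to 18.9 M gene counts each. Tet2 itself was at 7.34 to 15.4 counts per M gene counts (CPM; M, mega) in AIH livers, 4.77 to 9.24 in asymptomatic livers and 8.53 to 11.98 in control livers. A whole-gene count cannot show loss of the floxed exons, so these values do not check the genotype. By Xist and Y-linked counts, AIH livers came from 4 females and 1 male (AIH 4), asymptomatic livers from 5 males, and control livers from 2 females and 2 males. Library numbers 11 to 15 are the AIH livers and 1 to 10 the others, so any order of preparation and AIH cannot be told apart. Hepatocyte markers dominated every library, with a summed 80000 to 158200 CPM in AIH livers, 113200 to 140500 in asymptomatic livers and 110900 to 149500 in control livers. Reads that did not align were 3.23% to 6.54% of the AIH files, 4.93% to 9.27% of the asymptomatic files and 4.17% to 4.89% of the control files.

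The superfamily was sorted by textbook role into 5 systems, and some members of each were more abundant in AIH livers than in control livers. The tested members of B cell survival had all passed the filter on low counts only through AIH libraries. So had those of costimulation other than Cd40. Of the 17 members with at least 10 counts in at least 4 libraries outside AIH, 7 were higher in AIH than in control livers, namely Cd40, Ltb, Tnfrsf1b, Tnfrsf11a, Tnfrsf21, Tnfrsf26 and Tnfsf12. Another 12 members passed the filter on low counts only through AIH libraries and were thereby selected for higher values in AIH. Of these, 11 were called higher and Tnfrsf10b was not called. Together, 18 of 29 members were higher in AIH than in control livers, none was lower and 11 were not called. Over all 14638 genes tested, 15.6% were called higher and 6.08% lower, so 21.7% were called in either direction. The calls are from edgeR's quasi-likelihood test at an adjusted p under 0.05. The median log2 fold change of the 29 was 1.63, beside a median of -0.01 over all genes tested, and it ran from -0.68 to 5.65. Of the 18, 17 were over 2-fold higher, against 12.9% of all genes tested. All AIH libraries lay above all control libraries for 16 of the 29, against 13.2% of all genes tested, and for none did all lie below. Among the 17 members with counts outside AIH, the non-overlapping ones were the 7 named above, and all of these but Tnfrsf1b were over 2-fold higher. At an unadjusted p under 0.05, 22 of the 29 passed, beside 34% of all genes tested. These totals of the 29 include the 12 members that passed the filter through AIH alone. Their distance from the shares over all genes is therefore partly built in. In bulk tissue, more cells of a type and more RNA per cell cannot be told apart.

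The filter shapes these counts. The 17 members with counts outside AIH had a median log2 fold change of 0.77 between AIH and control livers, and the 12 that passed through AIH libraries alone had 3.88. The 12 members not tested were Cd40lg, Cd70, Fasl, Lta, Tnfrsf8, Tnfrsf17, Tnfrsf25, Tnfsf4, Tnfsf11, Tnfsf13, Tnfsf15 and Tnfsf18. They are given below as pooled counts. A fit without the filter called Fasl, Lta and Tnfrsf8 higher in AIH than in control livers. It did not call the rest of them (adjusted p 0.0681 to 0.929, edgeR). By system, costimulation had 7 of 7 tested members higher, of which 6 had passed the filter only through AIH libraries, and B cell survival had 3 of 3, all of which had. TNF and lymphotoxin had 4 of 7 higher, with 2 of the 7 passing through AIH alone, death ligands and receptors 2 of 7, with 1 such member, and bone and tissue 2 of 5, with 0 such members. The filter thus selected for most calls of costimulation and B cell survival in advance, and the systems are not ranked by them.

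**Figure D1:**
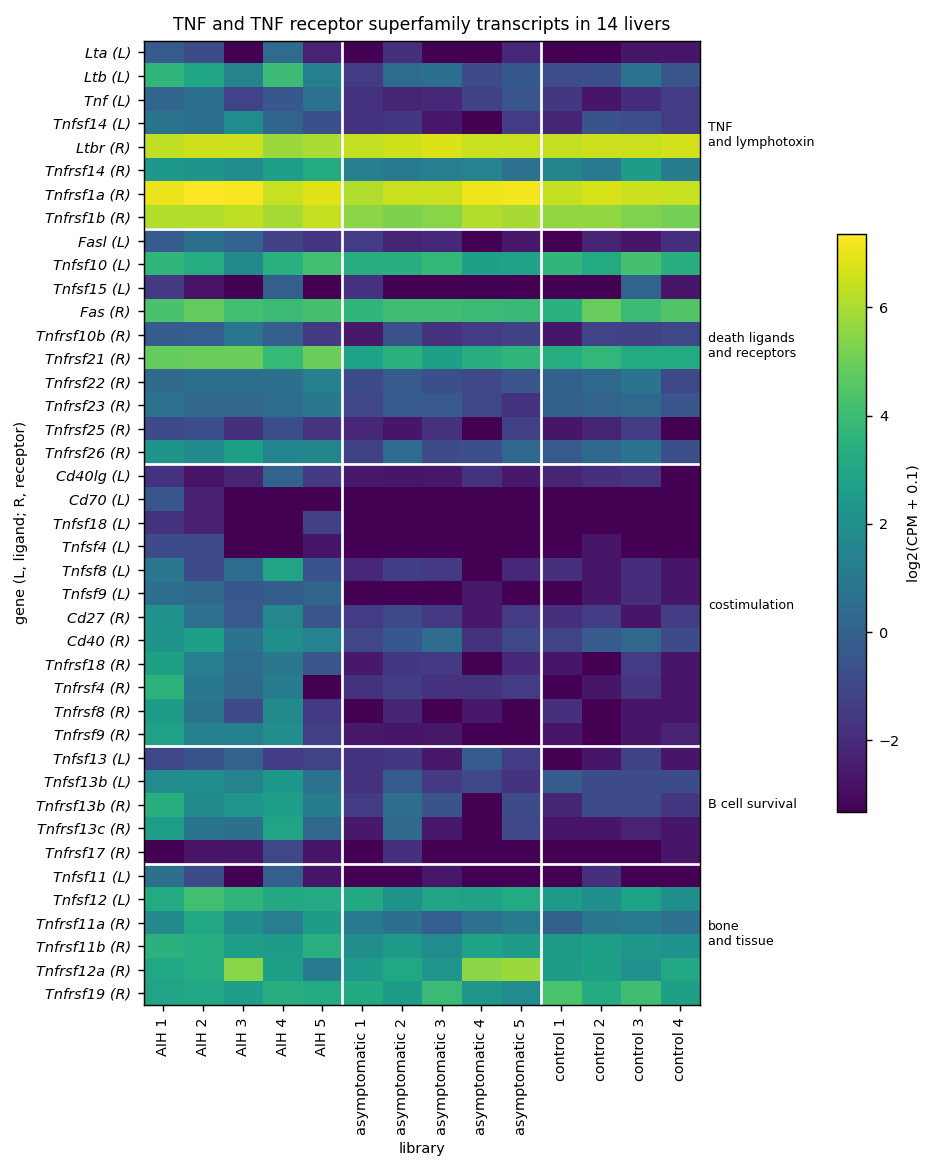
Heat map of log2(CPM + 0.1) for the 41 members in AIH, asymptomatic and control livers (columns, 1 library each), grouped by system, with L for ligands and R for receptors. Many rows of costimulation and B cell survival are brighter in AIH columns, though Tnfrsf4 is at 0 in AIH 5 and Cd70 in AIH 3, AIH 4 and AIH 5. Ltbr, Tnfrsf1a and Tnfrsf1b are bright in every column.

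Levels differed widely between members, and in AIH livers the kinds were interleaved below the top 4 receptors. Per kilobase of exon (RPKM), the receptors for lymphotoxin and TNF led the family in every group. Tnfrsf1a, which encodes the main death-domain TNF receptor, averaged 50.8 ± 11.6 RPKM in AIH livers (SD, n = 5), 41.5 ± 12.6 in asymptomatic livers (n = 5) and 35.8 ± 3.44 in control livers (n = 4). Ltbr, the lymphotoxin beta receptor, averaged 33.0 ± 7.65 RPKM in AIH livers, 40.0 ± 4.77 in asymptomatic livers and 38.9 ± 2.87 in control livers. Within each of the 3 groups, Tnfrsf1a and Ltbr were the top pair and Tnfrsf1b came next, and the difference between Tnfrsf1a and Ltbr in asymptomatic and control livers was smaller than the spread between libraries. Fas averaged 9.53 ± 2.23 RPKM in AIH livers and 9.46 ± 3.88 in control livers. The highest ligand was Tnfsf12, at 7.52 ± 2.45 RPKM in AIH livers, where it differed from Fas by less than the spread between libraries, and 3.33 ± 1.05 in control livers, while Tnf itself averaged 0.611 ± 0.306 RPKM in AIH livers and 0.112 ± 0.0592 in control livers.

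In the TNF and lymphotoxin system, the ligands Tnf, Ltb and Tnfsf14 rose in AIH livers, and of the receptors only Tnfrsf1b passed the test. Tnf, the founding cytokine of the family, stood at 1.01, 1.46, 0.350, 0.671 and 1.51 CPM in the 5 AIH livers, 0.195, 0.118, 0.126, 0.323 and 0.599 in the 5 asymptomatic livers and 0.234, 0.0565, 0.163 and 0.279 in the 4 control livers. All AIH livers lay above all control livers, while the lowest AIH liver, AIH 3, lay below asymptomatic 5. The log2 fold change of AIH against control was 2.41 ± 0.58 (SE, adjusted p 0.00861 by edgeR), and it rests on 6 to 30 counts per AIH library and 1 to 5 per control library.

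Ltb encodes lymphotoxin beta, which anchors lymphotoxin on the surface of lymphocytes and signals to LTBR. It had 13.2, 7.78, 2.62, 15.8 and 2.32 CPM in AIH livers, 0.260, 1.24, 1.38, 0.452 and 0.665 in asymptomatic livers and 0.468, 0.509, 1.58 and 0.615 in control livers. The groups did not overlap, and AIH 3 and AIH 5 were far below the other three AIH livers. Against control livers the log2 fold change was 3.38 ± 0.67 (adjusted p 0.00254, edgeR). Lta, its partner subunit, was not tested. The AIH livers held 48 Lta counts, the asymptomatic livers 5 and the control livers 2, a pooled ratio of 17.7 for AIH against control with an exact 95% counting interval of 4.65 to 150.5. AIH 4 held 22 of the 48 and AIH 3 held none, and the ratio was 11.8 without AIH 4 and 26.5 without control 4.

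Tnfsf14 encodes LIGHT, a ligand of HVEM and LTBR. Its AIH values were 1.63, 1.41, 3.61, 1.01 and 0.505 CPM, its asymptomatic values 0.195, 0.235, 0.0628, 0 and 0.266, and its control values 0.117, 0.565, 0.490 and 0.279. AIH 5 fell among the control livers. The log2 fold change of 2.14 ± 0.64 passed the test (adjusted p 0.0264, edgeR) but not without AIH 3 (0.0697), control 1 (0.0812) or control 4 (0.0776). Tnfrsf14, which encodes HVEM, averaged 5.63 CPM in AIH livers and 3.23 in control livers and was not called (log2 fold change 0.80 ± 0.34, adjusted p 0.114, edgeR).

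The receptors of this system are carried by many cell types. All 4 passed the filter also outside AIH, whereas Tnf and Tnfsf14 passed it only through AIH libraries, so the sizes of their fold changes are not compared. Tnfrsf1b, the TNF receptor without a death domain, had 70.1, 70.4, 81.1, 60.8 and 85.9 CPM in AIH livers, 45.5, 37.7, 44.0, 70.2 and 62.3 in asymptomatic livers and 49.5, 49.1, 39.4 and 34.8 in control livers. Every AIH liver lay above every control liver, and asymptomatic 4 and 5 reached the AIH range. Its log2 fold change was 0.77 ± 0.19 (adjusted p 0.0106, edgeR), and the call was lost without control 4 (0.0544). Tnfrsf1a had 132.9, 164.5, 154.1, 88.2 and 119.0 CPM in AIH livers, 70.5, 91.7, 92.0, 137.6 and 145.8 in asymptomatic livers and 84.6, 105.2, 92.2 and 88.7 in control livers. AIH 4 sat with the control livers and the other four AIH livers lay above them. Tnfrsf1a was not called (log2 fold change 0.51 ± 0.23, adjusted p 0.127, edgeR), but the adjusted p was 0.0495 without AIH 4. Ltbr was not called either, at -0.24 ± 0.17 on the log2 scale.

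Stretches upstream of RefSeq starts of Ltb and Tnfrsf9 are shown because both genes rose in AIH livers. Both hold a match to an NF-kB-like pattern, GGGNNTTTCC, searched on both strands. Sequences are from RefSeq on GRCm38.p6, 5′ to 3′ on the plus strand, which is the coding strand of both genes, with the match in capitals. The Ltb stretch lies at chr17:35194289-35194438, before the annotated exons, and its match, on the opposite strand, begins 87 bases before the RefSeq start. The Tnfrsf9 stretch lies at chr4:150927946-150927975, 43 bases before the RefSeq start by the first base of its match. That match lies in an annotated exon of Tnfrsf9, a gene annotated from chr4:150914562, so the stretch is inside the annotated gene.
Ltb: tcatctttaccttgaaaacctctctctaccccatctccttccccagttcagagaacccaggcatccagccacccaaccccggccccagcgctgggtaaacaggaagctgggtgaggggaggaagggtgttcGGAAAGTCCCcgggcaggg
Tnfrsf9: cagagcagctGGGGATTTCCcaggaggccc
Among promoter windows of 300 bases, 250 before and 50 after a start, 3 of the 35 windows of members held the pattern, the last one at Tnfrsf25, which was not tested. Over all genes, 535 of 32851 windows (1.63%) held it. RefSeq windows were found for 31 of the 41 members. This spelling was kept after other spellings had been tried, and a match is only a string of letters.

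**Figure D2:**
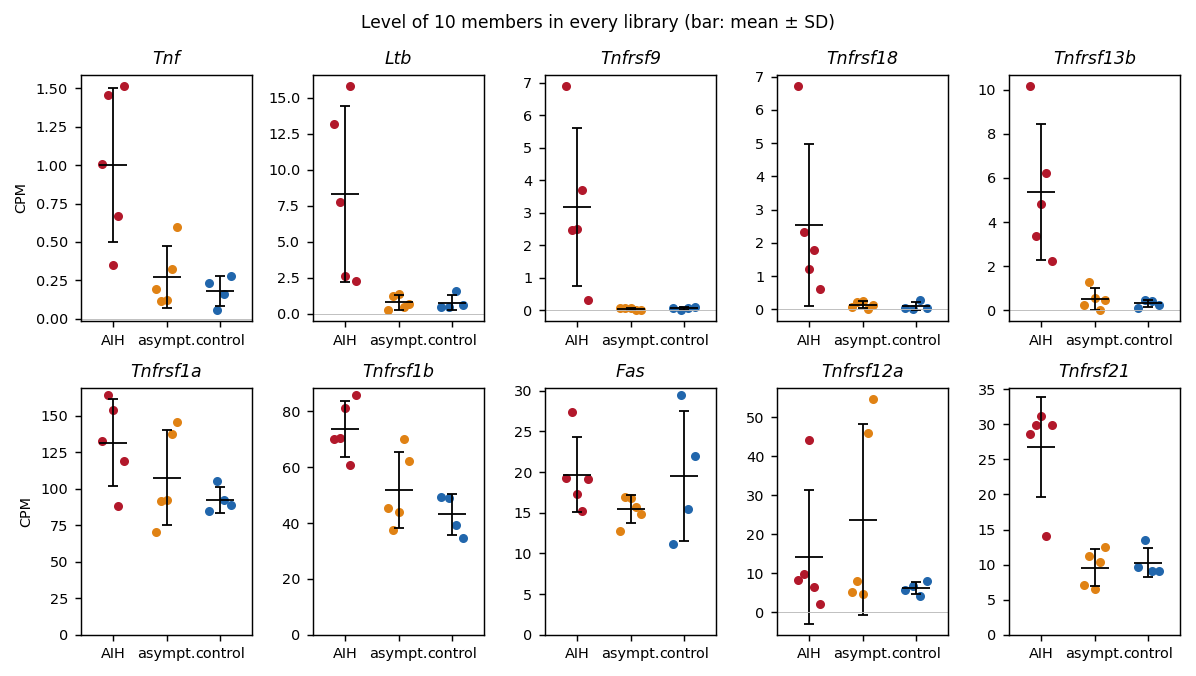
CPM of 10 members in each AIH, asymptomatic and control liver (points) with the mean ± SD of the group (bars). Tnfrsf9 reaches 6.92 CPM in AIH 1 and at most 0.112 in control livers, Fas overlaps across the 3 groups, and Tnfrsf12a is high in AIH 3, asymptomatic 4 and asymptomatic 5.

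The costimulation system sustains activated T cells and licenses antigen-presenting cells. The log2 fold changes of its 7 tested members ran from 2.52 to 5.65, and 6 of the 7, that is those other than Cd40, had passed the filter only through AIH libraries. Tnfrsf9 encodes CD137, a receptor that appears on T cells after activation. It had 6.92, 2.48, 2.51, 3.69 and 0.303 CPM in AIH livers, 0.0650, 0.0588, 0.0628, 0 and 0 in asymptomatic livers and 0.0585, 0, 0.0545 and 0.112 in control livers. Every AIH liver lay above every other liver, although AIH 5 had only 6 counts. The pooled counts were 310 in AIH and 4 in control livers, a ratio of 57.2 with a 95% counting interval of 22.1 to 211.4, or 39.1 without AIH 1. Its log2 fold change of 5.65 ± 0.87 was the largest of the 29 (adjusted p 0.000425, edgeR).

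Tnfrsf18 and Tnfrsf4 encode GITR and OX40, which regulatory T cells and activated helper T cells carry. Tnfrsf18 had 6.72, 2.33, 1.22, 1.79 and 0.606 CPM in AIH livers, 0.0650, 0.235, 0.251, 0 and 0.133 in asymptomatic livers and 0.0585, 0, 0.272 and 0.0559 in control livers. The groups did not overlap (log2 fold change against control 4.60 ± 0.89, adjusted p 0.00207, edgeR), and the value moved to 3.84 without AIH 1 and 5.82 without control 3. Tnfrsf4 had 11.9, 1.90, 1.05, 2.18 and 0 CPM in AIH livers, against 0.195, 0.294, 0.188, 0.194 and 0.266 in asymptomatic livers and 0, 0.0565, 0.218 and 0.0559 in control livers. AIH 5 had no count, and AIH 1 alone held 248 of the 344 counts. Its log2 fold change was 5.23 ± 1.23 (adjusted p 0.00726, edgeR), and 6.24 without control 3. Limma-voom with quality weights did not call it (adjusted p 0.167). Without AIH 1, Tnfrsf4 did not pass the filter, so that fit gave no value for it.

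Cd27 and Cd40 are carried by resting lymphocytes and antigen-presenting cells as well. Cd27, a receptor of naive and memory lymphocytes, had 4.32, 1.51, 0.699, 3.02 and 0.606 CPM in AIH livers, 0.260, 0.412, 0.251, 0.0646 and 0.266 in asymptomatic livers and 0.175, 0.283, 0.0545 and 0.279 in control livers. Its groups did not overlap (log2 fold change against control 3.32 ± 0.68, adjusted p 0.00298, edgeR). Cd40, through which helper T cells activate B cells, macrophages and dendritic cells, had 4.47, 6.42, 1.57, 3.92 and 2.58 CPM in AIH livers, 0.390, 0.647, 1.32, 0.194 and 0.399 in asymptomatic livers and 0.351, 0.735, 1.09 and 0.447 in control livers. Here too every AIH liver lay above every other one, and AIH 3 was the closest to them (log2 fold change 2.52 ± 0.54, adjusted p 0.00395, edgeR).

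Of the ligands for these receptors, Tnfsf8 and Tnfsf9 could be tested. Tnfsf8, the ligand of CD30, had 1.78, 0.437, 1.22, 7.44 and 0.555 CPM in AIH livers, 0.130, 0.294, 0.251, 0 and 0.133 in asymptomatic livers and 0.175, 0.0565, 0.163 and 0.0559 in control livers. AIH 4 held 133 of the 211 AIH counts, and the groups did not overlap (log2 fold change against control 4.25 ± 0.94, adjusted p 0.00512, edgeR). Without AIH 4, Tnfsf8 did not pass the filter, so that fit gave no value for it. Tnfsf9, the ligand of CD137, had 1.34, 1.118, 0.641, 0.783 and 0.960 CPM in AIH livers, against 0, 0.0565, 0.163 and 0.0559 in control livers. Its log2 fold change was 3.67 ± 0.60 (adjusted p 0.000659, edgeR), or 4.44 without control 3, and 4 of the 5 asymptomatic livers had no count of it.

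The remaining members of the costimulation system were too sparse to test. Tnfrsf8, which encodes CD30, had 120, 33, 7, 59 and 5 counts in AIH livers, 3 in all asymptomatic livers and 5 in all control livers. Its pooled ratio was 33.1 for AIH against control (95% counting interval 13.97 to 102.9), 19.6 without AIH 1 and 62.8 without control 1, and a fit without the filter called it higher (adjusted p 0.00303, edgeR). Tnfsf4, the OX40 ligand, had 19 counts in AIH livers, 0 in asymptomatic livers and 1 in control livers, a ratio of 14.03 for AIH against control (2.23 to 582.9). Cd70, the ligand of CD27, had 15 counts in AIH livers, 13 of them in AIH 1, and none elsewhere, which makes it at least 3.69-fold higher than the 3-count floor of the control group. Without AIH 1 only 2 counts were left, and no fold can be given. Tnfsf18, the GITR ligand, had 12 counts in AIH livers and none elsewhere, at least 2.95-fold above that floor, and at least 1.86-fold without AIH 5. Cd40lg, the CD40 ligand of helper T cells, had 29 counts in AIH livers, 7 in asymptomatic livers and 9 in control livers, with 17 of the 29 in AIH 4. Its ratio of AIH against control was 2.38 (1.10 to 5.71), and 1.21 (0.468 to 3.25) without AIH 4. Against control livers, the fit without the filter called none of Tnfsf4, Cd70, Tnfsf18 and Cd40lg (adjusted p 0.122 to 0.406, edgeR).

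T cell markers moved with this system. The 5 markers of T cells (Cd3d, Cd3e, Cd3g, Cd2 and Lck) were all called higher in AIH livers, and their summed level was 73.1, 41.5, 14.2, 51.5 and 8.79 CPM in AIH livers, 1.69 to 3.83 in asymptomatic livers and 1.46 to 5.18 in control livers, with no marker at 0 throughout a group. The sum of Cd27, Tnfrsf4, Tnfrsf8, Tnfrsf9 and Tnfrsf18 was 35.6, 9.82, 5.89, 13.99 and 1.77 CPM in the AIH livers. Divided by the marker sum, it came to 0.201 to 0.488 in AIH livers, 0.161 to 0.346 in asymptomatic livers and 0.107 to 0.320 in control livers. The 3 ranges overlapped, with the highest ratios in AIH 1 and AIH 3. Whether the receptors rose beyond the number of T cells was not tested.

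**Figure D3:**
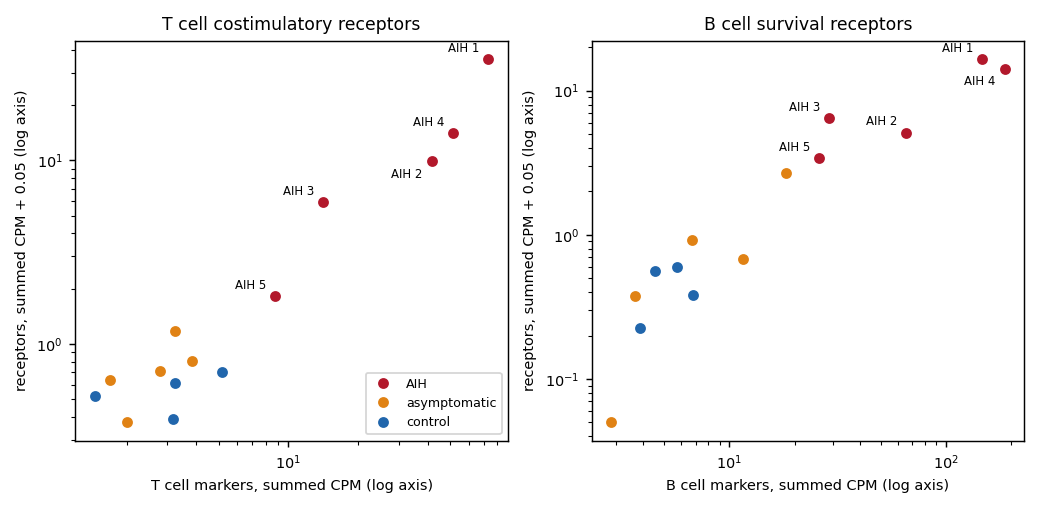
Summed CPM + 0.05 of T cell costimulatory receptors against T cell markers (left) and of B cell survival receptors against B cell markers (right), 1 point per liver, both axes logarithmic. AIH livers lie to the upper right, from AIH 5 with 8.79 CPM of T cell markers to AIH 1 with 73.1, and asymptomatic and control livers share the lower left.

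In the B cell survival system, the cytokine BAFF and its tested receptors rose, and all 3 had passed the filter only through AIH libraries. Tnfsf13b, which encodes BAFF, is made mainly by myeloid and stromal cells. It had 3.50, 3.60, 2.62, 5.04 and 1.47 CPM in AIH livers, 0.195, 0.765, 0.251, 0.388 and 0.1996 in asymptomatic livers and 0.760, 0.452, 0.436 and 0.447 in control livers. The lowest AIH liver, AIH 5, still lay above every other liver (log2 fold change against control 2.62 ± 0.44, adjusted p 0.000852, edgeR). Tnfsf13, the related cytokine APRIL, was not tested. It had 48 counts in AIH livers, 24 in asymptomatic livers and 8 in control livers, and the most in a liver was 16, in AIH 3. Its pooled ratio of AIH against control was 4.43 (2.08 to 10.8), or 13.1 without control 3.

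Tnfrsf13b encodes TACI, a receptor for BAFF and APRIL on B cells and plasma cells. It had 10.2, 3.35, 4.84, 6.21 and 2.22 CPM in AIH livers, 0.260, 1.29, 0.565, 0 and 0.466 in asymptomatic livers and 0.117, 0.452, 0.436 and 0.223 in control livers. The AIH livers lay above all others (log2 fold change against control 4.09 ± 0.74, adjusted p 0.00132, edgeR). Tnfrsf13c, the BAFF receptor of mature B cells, had 6.34, 1.65, 1.46, 7.55 and 1.06 CPM in AIH livers, 0.0650, 1.18, 0.0628, 0 and 0.399 in asymptomatic livers and 0.0585, 0.0565, 0.109 and 0.0559 in control livers. Asymptomatic 2 reached the AIH range, and the control livers held 5 counts in all. The log2 fold change of AIH against control was 5.55 ± 1.08 (adjusted p 0.00225, edgeR), and the pooled ratio 51.3 (21.8 to 158.8), or 38.5 without AIH 4. Tnfrsf17, the plasma cell receptor BCMA, had 10 counts in AIH livers, 7 of them in AIH 4, 3 in asymptomatic livers and 1 in control livers, a ratio of AIH against control of 7.38 (1.05 to 320.5), and 2.72 (0.218 to 142.8) without AIH 4.

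B cell and plasma cell markers moved with these receptors. The 5 B cell markers were all called higher in AIH livers, with a summed 26.0 to 187.3 CPM in AIH livers, 2.84 to 18.2 in asymptomatic livers and 3.86 to 6.76 in control livers, and none at 0 throughout a group. Of the 5 plasma cell markers 4 were called higher, and their sum was 18.6 to 532.1 CPM in AIH livers, 5.24 to 39.2 in asymptomatic livers and 5.48 to 11.95 in control livers. The sum of Tnfrsf13b, Tnfrsf13c and Tnfrsf17 over the B cell marker sum was 0.0756 to 0.220 in AIH livers, 0 to 0.146 in asymptomatic livers and 0.0454 to 0.113 in control livers, so the ranges overlapped. Asymptomatic 2, where Tnfrsf13c was high, also had the highest B cell marker sum of its group. The part of B cell number in these rises was not tested.

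Among death ligands and receptors, Fas and the TRAIL gene Tnfsf10 were not called, and the rises were in Tnfrsf21 and Tnfrsf26. Fas, the receptor through which FAS ligand kills hepatocytes, had 19.3, 27.4, 17.2, 15.3 and 19.1 CPM in AIH livers, 12.8, 17.0, 16.9, 15.7 and 14.9 in asymptomatic livers and 11.1, 29.4, 15.5 and 22.0 in control livers. The control livers spanned the whole AIH range, and the log2 fold change of AIH against control was 0.01 ± 0.24 (adjusted p 0.981, edgeR), a value whose sign turned with the processing. Fasl, the ligand carried by cytotoxic T cells and natural killer cells, was too sparse to test, at 0.768, 1.46, 0.932, 0.336 and 0.202 CPM in AIH livers, 0.260, 0.118, 0.126, 0 and 0.0665 in asymptomatic livers and 0, 0.113, 0.0545 and 0.168 in control livers. All AIH livers lay above all control livers, and AIH 5 lay below asymptomatic 1. The pooled counts were 72 in AIH and 6 in control livers, a ratio of 8.86 (3.88 to 24.9), or 6.58 without AIH 2 and 13.3 without control 4. The fit without the filter called Fasl higher in AIH than in control livers (adjusted p 0.0199, edgeR). Markers of natural killer cells summed to 1.97 to 5.201 CPM in AIH livers, 0.118 to 0.879 in asymptomatic livers and 0.117 to 1.36 in control livers, with 1 of the 2 tested called higher.

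Tnfrsf21 encodes DR6, a death-domain receptor of many tissues. It had 28.6, 29.8, 31.1, 14.04 and 29.9 CPM in AIH livers, 7.15, 11.2, 6.46, 10.4 and 12.5 in asymptomatic livers and 9.64, 13.4, 9.04 and 9.05 in control livers. The female AIH livers were nearly level with each other and AIH 4, the male, had the lowest AIH value, yet above all other livers. Against control livers the log2 fold change was 1.37 ± 0.26 (adjusted p 0.00175, edgeR), and in males alone it was 0.57 with 1 AIH liver (adjusted p 0.649). Tnfrsf26, a mouse receptor next to the decoy TRAIL receptors, had 4.56, 3.35, 6.64, 2.69 and 2.83 CPM in AIH livers, 0.325, 1.24, 0.439, 0.517 and 1.13 in asymptomatic livers and 0.701, 1.13, 1.58 and 0.503 in control livers. Its groups did not overlap (log2 fold change against control 2.03 ± 0.45, adjusted p 0.00548, edgeR).

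The other members of this system were not called against control livers. For Tnfrsf10b, the mouse TRAIL death receptor, the log2 value was 1.63 ± 0.59 (adjusted p 0.0637, edgeR) at 0.887 CPM in AIH and 0.279 CPM in control livers. The decoy receptor genes Tnfrsf22 and Tnfrsf23 had 0.65 ± 0.37 and 0.59 ± 0.34. Tnfsf10 had -0.26 ± 0.37, with 10.7 CPM in AIH and 12.8 CPM in control livers. Tnfrsf25, the DR3 receptor of lymphocytes, had 35 counts in AIH livers, 11 in asymptomatic livers and 8 in control livers, a ratio of AIH against control of 3.23 (1.47 to 8.06), or 6.39 without control 3. Its ligand Tnfsf15 had 21 counts in AIH livers, 3 in asymptomatic livers and 19 in control livers, with 15 of the 21 in AIH 4 and 18 of the 19 in control 3, so that 1 library made up most of either group and the ratio was 0.816 (0.418 to 1.61), 0.286 without AIH 4 and 11.5 (1.85 to 475.6) without control 3.

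In the bone and tissue system, the RANK receptor and the TWEAK ligand rose. Tnfrsf11a, which encodes RANK, had 3.12, 8.16, 3.67, 2.29 and 5.71 CPM in AIH livers, 1.95, 1.41, 0.816, 1.49 and 1.996 in asymptomatic livers and 0.877, 1.81, 2.07 and 1.51 in control livers. AIH 4 was the lowest AIH liver and just above the highest control liver (log2 fold change 1.55 ± 0.40, adjusted p 0.012, edgeR). Tnfsf11, the RANK ligand, had 55 counts in AIH livers, 1 in asymptomatic livers and 3 in control livers, with 30 of the 55 in AIH 1 and none in AIH 3. Its ratio of AIH against control was 13.5 (4.396 to 67.7), or 7.85 without AIH 1. Tnfrsf11b, the soluble decoy osteoprotegerin, averaged 8.69 CPM in AIH and 5.37 CPM in control livers and was not called (log2 fold change 0.69 ± 0.27, adjusted p 0.0801, edgeR).

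Tnfsf12 encodes TWEAK, a ligand made by macrophages. It had 9.03, 17.4, 12.7, 8.67 and 9.19 CPM in AIH livers, 8.71, 4.35, 7.40, 7.04 and 9.05 in asymptomatic livers and 5.202, 3.9, 7.25 and 3.85 in control livers. The AIH and control livers did not overlap (log2 fold change 1.17 ± 0.28, adjusted p 0.00859, edgeR). Tnfsf12 shares its locus with Tnfsf13, a read-through gene and an antisense gene, and without a stated strand setting their reads cannot be told apart. Its receptor gene Tnfrsf12a (Fn14), known from injured epithelium and bile ducts, followed another pattern. It had 8.12, 9.72, 44.2, 6.49 and 2.07 CPM in AIH livers, 5.27, 8.06, 4.64, 45.8 and 54.6 in asymptomatic livers and 5.73, 6.61, 4.19 and 8.04 in control livers. It stood high in AIH 3, asymptomatic 4 and asymptomatic 5 alone and was not called (1.20 ± 0.86 for AIH against control on the log2 scale, adjusted p 0.352, edgeR). Markers of cholangiocytes summed to 902.2 CPM in AIH 3, against 78.6 to 118.1 in the other AIH livers, and to 101.7 and 178.4 in asymptomatic 4 and 5, against 41.9 to 78.6 in the other asymptomatic livers. AIH 1, AIH 4 and AIH 5 had higher sums than asymptomatic 4, at 110.0, 118.1 and 115.4 CPM, without a high Tnfrsf12a value. The part of cholangiocytes in the Tnfrsf12a values was not tested. Tnfrsf19, known as TROY, was not called (-0.68 ± 0.40).

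The AIH livers differed among themselves. Of the 18 members called higher against control, AIH 1 had the highest AIH value for 6, of which 5 were among the 7 costimulation members, and the lowest for none. AIH 5 had the lowest value for 9, among them all 3 B cell survival members and 4 of 7 costimulation members, and the highest for 2. AIH 4, the male, was highest for 4 and lowest for 5. AIH 5 also had the lowest T cell, B cell and plasma cell marker sums of the AIH livers, at 8.79, 26.0 and 18.6 CPM, while its monocyte and macrophage marker sum of 1104 CPM was within the AIH range of 796.6 to 1616. That marker sum was 212.6 to 273.1 CPM in asymptomatic livers and 180.5 to 388.3 in control livers, with 5 of 5 markers called higher in AIH livers. Kupffer cell markers, 5 of 5 called higher, summed to 686.1 to 3274 CPM in AIH livers, 375.9 to 506.9 in asymptomatic livers and 297.1 to 629.7 in control livers. Markers of neutrophils and their precursors, 4 of 4 tested called higher, summed to 14.9 to 936.4 CPM in AIH livers, 1.59 to 7.82 in asymptomatic livers and 1.40 to 3.45 in control livers, where Ly6g was at 0 throughout. The lowest AIH sums of both lists were in AIH 4. Their part in the members' values was not tested.

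In asymptomatic livers, which carried the same alleles as AIH livers, no member was called against control livers. By edgeR, 0 of the 29 members tested passed, as did 0 of 14638 genes (0%). At an unadjusted p under 0.05, edgeR gave 3 members, beside 10.5% of all genes tested, and no member's groups failed to overlap in either direction, beside 1.27% of genes above and 1.15% below. DESeq2 called no member, beside 118 of 14638 genes. Limma-voom called 2, Tnfrsf23 lower (adjusted p 0.049) and Tnfsf12 higher (adjusted p 0.0496), beside 1299 of 14638 genes. The median log2 fold change of the 29 was -0.03. The 4 members with the smallest p were Tnfrsf23 (-0.90 ± 0.36), Tnfrsf22 (-0.87 ± 0.39), Tnfrsf12a (1.94 ± 0.88) and Tnfsf9 (-1.96 ± 0.98), with adjusted p of 0.435 to 0.503 by edgeR. Tnfrsf23 averaged 0.475 CPM in asymptomatic livers and 0.899 in control livers, and Tnfrsf22 averaged 0.542 CPM in asymptomatic livers and 0.994 in control livers. Tnfsf9 rests on 1 count in asymptomatic and 5 counts in control livers, and the value was -3.45 without asymptomatic 4 and -1.18 without control 3. T cell markers gave no separation of these groups either, as their ranges above show.

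**Figure D4:**
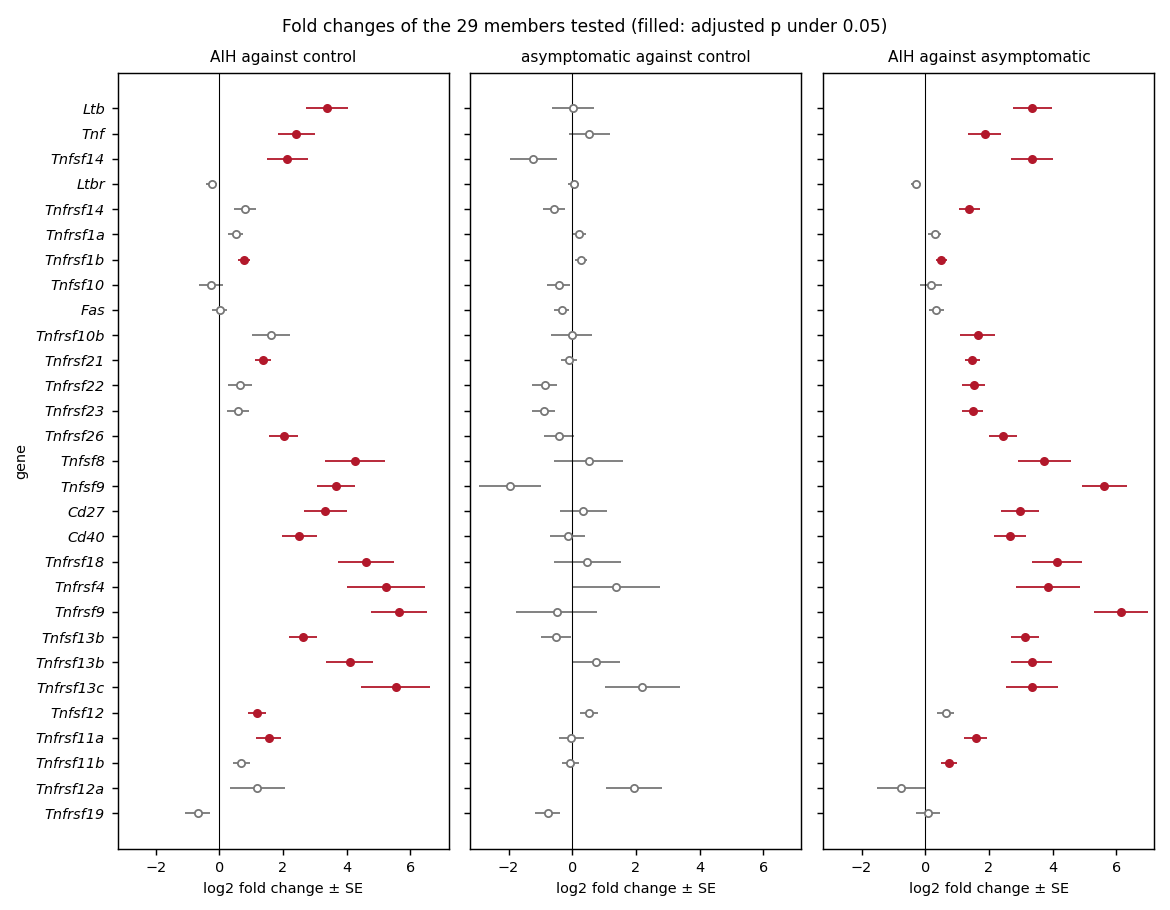
Log2 fold changes ± SE of the 29 members tested, with AIH livers set against control livers on the left, asymptomatic against control livers in the middle and AIH against asymptomatic livers on the right, and with filled points for an adjusted p under 0.05. In the first panel 18 points are filled, in the second none and in the last 22, and every filled point lies right of 0.

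The AIH and asymptomatic livers share their genotype, and their comparison gave 22 of 29 members higher in AIH, none lower and 7 not called. Of the 17 members with counts outside AIH 10 were called, and of the 12 that passed the filter only through AIH libraries 12, beside 19.1% of all genes called higher and 10.7% called lower. The median log2 fold change was 1.65, against -0.03 over all genes, and 16 members did not overlap with AIH higher, beside 12.3% of genes. At an unadjusted p under 0.05, 23 passed, beside 41.4% of genes. These totals too include the 12 members that passed the filter only through AIH libraries. Both comparisons use the same 5 AIH livers, so they are not independent. The largest values were those of Tnfrsf9 (6.14 ± 0.85, adjusted p 0.000121, edgeR), Tnfsf9 (5.63 ± 0.71, adjusted p 5.42e-05), which was at 7.12 without asymptomatic 4, Tnfrsf18 (4.13 ± 0.79, and 3.37 without AIH 1) and Tnfrsf4 (3.87 ± 0.999). Of the B cell survival genes, Tnfsf13b was at 3.13 ± 0.43, Tnfrsf13b at 3.34 ± 0.64 and Tnfrsf13c at 3.35 ± 0.82. Without asymptomatic 2, Tnfrsf13b was at 4.02 and Tnfrsf13c at 4.72. Ltb (3.37 ± 0.62), Tnfsf14 (3.36 ± 0.66), Tnfsf8 (3.74 ± 0.83), Cd27 (2.98 ± 0.61), Cd40 (2.67 ± 0.50), Tnfrsf26 (2.44 ± 0.43), Tnf (1.87 ± 0.52), Tnfrsf11a (1.58 ± 0.37), Tnfrsf21 (1.48 ± 0.24) and Tnfrsf1b (0.50 ± 0.18) were called here too. The call of Tnfrsf1b (adjusted p 0.0468, edgeR) was made in 5 of 20 alternatives (adjusted p 0.00807 to 0.802), and was lost with RLE scaling, without a filter, with limma-voom and without any 1 of asymptomatic 1, 2 or 3 or AIH 1, 2, 3 or 5.

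Calls of this comparison that were not made against control livers were Tnfrsf14 (1.38 ± 0.33), Tnfrsf22 (1.52 ± 0.36), Tnfrsf23 (1.49 ± 0.34), Tnfrsf10b (1.65 ± 0.56) and Tnfrsf11b (0.76 ± 0.25), with adjusted p from 0.00474 to 0.0381 by edgeR. None of these was called with sex as a term (adjusted p 0.107 to 0.511, edgeR). Nor was any called with the unaligned share of reads as a term (0.209 to 0.792, edgeR). Tnfrsf10b was called in 7 of 15 alternatives (adjusted p 0.0169 to 0.661), and not without asymptomatic 1, 3, 4 or 5. Tnfrsf11b was called in 9 of 20 (0.014 to 0.888), and not without asymptomatic 1, 3 or 5 or AIH 1, 2 or 5, and neither was called without a filter. Tnfsf12 was called against control livers alone (0.64 ± 0.26 against asymptomatic livers, adjusted p 0.0763). The difference between the 2 comparisons is the asymptomatic against control difference, in which edgeR called none of these 6 and limma-voom called Tnfrsf23 and Tnfsf12. The asymptomatic livers were all male and 4 of 5 AIH livers were female. All 22 values stayed above 0 with sex as a term, in males alone (1 AIH liver) and with the unaligned share of reads as a term. Of the 22, 11 were still called with sex as a term and 5 with the unaligned share. Among all 14638 genes tested, 1222 were called higher with sex as a term and 544 with the unaligned share, beside 2796 with no such term. The median log2 fold change of the 22 was 2.38 with sex as a term, 2.68 in males alone and 2.54 with the unaligned share, beside 2.82 with no such term. Those called in both fits, with sex and with the unaligned share as a term, were Ltb, Tnfrsf9, Tnfsf8, Tnfsf9 and Tnfsf13b. Of these, only Ltb had passed the filter also outside AIH libraries. In the fit with sex as a term, 18 members were called against control livers, beside 1890 of 14638 genes called higher.

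Downstream of the receptors, 55 symbols of 8 lists were followed, of which 54 were tested. In AIH livers 19 of the 54 were higher than in control livers, 3 lower and 32 not called, beside 15.6% of all genes called higher and 6.08% lower. All 3 genes of the non-canonical NF-kB route, the arm that LTBR, CD40 and the BAFF receptor use, were higher. Nfkb2 averaged 19.4 ± 5.98 CPM in AIH livers and 7.24 ± 2.095 in control livers (SD, log2 fold change 1.42 ± 0.26, adjusted p 0.00128, edgeR). Relb averaged 7.87 ± 2.79 CPM in AIH livers and 2.37 ± 0.561 CPM in control livers (1.73 ± 0.34). Map3k14, which encodes the kinase NIK, averaged 11.7 ± 5.202 CPM in AIH livers and 4.56 ± 1.75 CPM in control livers (1.36 ± 0.35). Of 10 kinases and subunits of the canonical route, 2 were higher and 2 lower, which is near the share over all genes for the higher ones. Nfkb1 was higher (0.62 ± 0.14), while Chuk (-0.72 ± 0.16) and Map3k7 (-0.44 ± 0.14), which encode kinases of the route, were lower.

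Of a list of 12 feedback regulators of NF-kB, 5 were higher and none lower, beside 15.6% of all genes called higher and 6.08% lower. Tnfaip3, which encodes the deubiquitinase A20, averaged 17.7 ± 2.45 CPM in AIH livers and 4.82 ± 1.23 in control livers (log2 fold change 1.88 ± 0.29, adjusted p 0.000446, edgeR). Its partner gene Tnip1 was higher by 1.04 ± 0.14 and Nfkbia, the gene of IkB alpha, by 0.68 ± 0.15 on that scale. Of 9 TRAFs and adaptors, Traf1, an adaptor induced by NF-kB in activated lymphocytes, was higher at 7.27 ± 3.06 CPM in AIH livers and 0.447 ± 0.175 in control livers (4.00 ± 0.47, adjusted p 5.28e-05, edgeR). Traf4 was lower (-0.62 ± 0.20), and the 7 others, Traf2 (0.46 ± 0.17) among them, were not called. None of the 3 subunits of the linear ubiquitin ligase was called, with values from 0.05 to 0.23 on the log2 scale.

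The genes that free TNF from the cell surface had 3 of 4 higher, namely Rhbdf2 (0.86 ± 0.25), Adam10 (0.48 ± 0.15) and the TNF protease gene Adam17 (0.66 ± 0.22). Of 9 genes that carry out apoptosis and necroptosis after death receptors, 4 were higher and none lower. Ripk3, a kinase of necroptosis that is scarce in hepatocytes and present in leukocytes, averaged 8.37 ± 4.99 CPM in AIH livers and 1.70 ± 0.772 in control livers (2.29 ± 0.43, adjusted p 0.00184, edgeR). Bak1 (0.97 ± 0.22) and Bax (0.86 ± 0.25), pore-forming genes of mitochondrial apoptosis, were higher as well. Among superfamily genes whose symbols fall outside the rule, Relt was higher (3.09 ± 0.46, adjusted p 0.000327, edgeR) and 3 others were not called. No gene of these lists was called in asymptomatic against control livers. Against asymptomatic livers, AIH livers had 20 of the 54 higher and 4 lower, beside 19.1% and 10.7% of all genes.

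**Figure D5:**
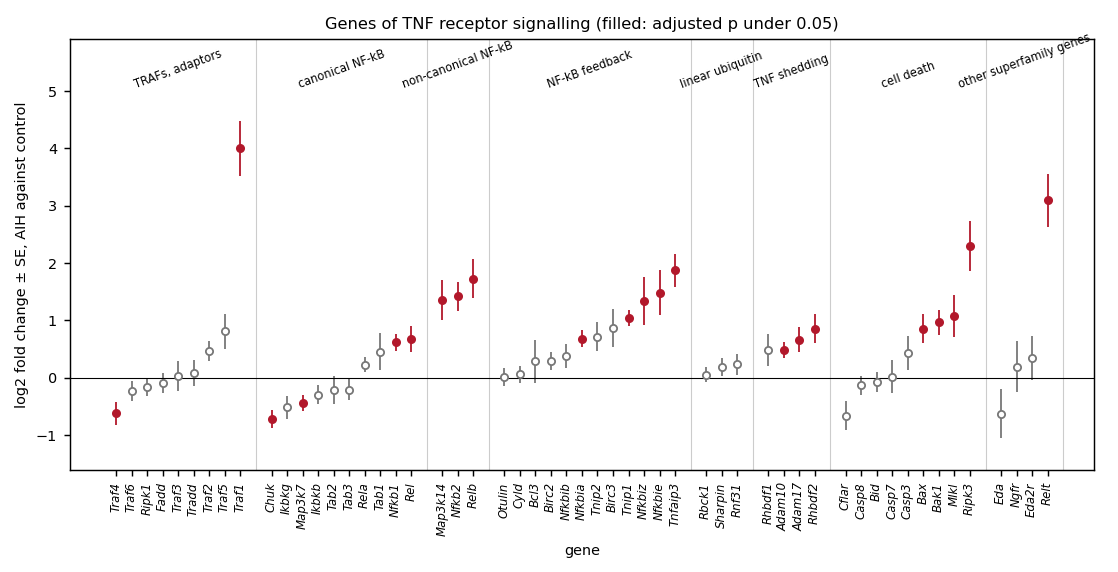
Log2 fold changes ± SE of AIH against control livers for 54 genes of TNF receptor signalling, grouped by list, with filled points for an adjusted p under 0.05. Traf1 (4.00), Relt (3.09) and Ripk3 (2.29) stand highest, the 3 non-canonical NF-kB genes are all filled, and Traf4, Chuk and Map3k7 are filled below 0.

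Many members lie beside each other in the genome, and neighbours did not always share a call. On GRCm38, 22 of the 41 genes form 9 groups in which the gap between neighbours is at most 200 kb. Ltb, Tnf and Lta lie within 10.9 kb of chromosome 17 (chr17:35194439-35205351), and the tested pair, Ltb and Tnf, rose in AIH livers. Tnfrsf4 and Tnfrsf18 lie within 15.1 kb of chromosome 4 (chr4:156013843-156028895), and both rose. On chromosome 6, Cd27, Ltbr and Tnfrsf1a lie within 129.9 kb (chr6:125232622-125362484). Of these, Cd27 rose in AIH livers and the other two were not called. On chromosome 7, Tnfrsf26, Tnfrsf22 and Tnfrsf23 lie within 78.2 kb (chr7:143607659-143685872), with Tnfrsf26 called higher against control and asymptomatic livers and its neighbours called against asymptomatic livers alone. The 3 genes of chromosome 7 share an overlapping gene, and 15 of the 41 members overlap another annotated gene, so some of their reads may belong to it.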

How the data were processed

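RNA-seq of 14 mouse livers was analysed from the deposited files, which hold raw read counts per Ensembl gene. The submitters' processing notes name, without roles, HISAT2 2.1.0, HTSeq 0.9.0, cutadapt 1.12, FastQC 0.11.5, R 4.0 and edgeR, and GRCm38 beside a human build. The strand setting and annotation release are not given in the sources used here. HTSeq summary rows, among them 28.8% to 37.0% of reads in a file that did not align uniquely, stayed out of library sizes and tests. Symbols, lengths and positions came from GENCODE M21 on GRCm38.

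Counts were filtered with filterByExpr, scaled by TMM and fitted in R 4.3.3 with edgeR 4.0.16, all 14 libraries together. Tests were two-sided quasi-likelihood F-tests, and Benjamini-Hochberg adjustment ran over 14638 genes with a threshold of 0.05. CPM are TMM-scaled, RPKM divide CPM by exonic length, and the SE of a log2 fold change was derived from F. Pooled ratios divide summed counts by library sizes, with exact 95% binomial intervals, and the floor is 3 counts per group (0.0422 CPM in control livers). Both cover no more than counting error. The fit was tested on simulated counts. Alternatives were RLE and total scaling, other filters, DESeq2 1.42.0, limma-voom (limma 3.58.1), sex, single sexes, 2 groups and leaving out each library, and, chosen after seeing the data, the unaligned share.

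Every member is named. Values of each library are given for Tnf, Fas, Fasl, Tnfrsf1a, Tnfrsf1b, Cd40 and, among members called in AIH against control livers with at least 1 CPM in either group, the 6 ligands and 10 receptors with the smallest p. Values of each library for Tnfsf9, Tnfrsf8, Tnfrsf11a and Tnfrsf12a were added after they were seen. Of each signalling list, up to 3 genes with the smallest p are named, and others named beside them were added likewise. The members and lists were chosen with earlier results of these data known.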

Additional observations from a re-analysis of the deposited data

Results flagged for a closer look

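In 87 groups of 4 or 5 livers, 1 for each tested member and group, the highest or lowest liver was set against the spread of its group on the log2(CPM + 0.5) scale. The gap to the nearest liver, as a share of the whole range, passed Dixon's critical value 7 times. Chance passes about 5% of groups, so a few such cases are to be looked for in this many. Tnfrsf21 in AIH livers stood out by its lowest liver, AIH 4, with 14.04 CPM against 28.6 to 31.1 in the other AIH livers (gap 0.894 of the range). Tnfrsf21 in control livers stood out by control 2, with 13.4 CPM against 9.04 to 9.64 (0.839). Tnfrsf22 in AIH livers stood out by AIH 5, with 2.42 CPM against 1.20 to 1.46 (0.743). The other 4 rest on few counts. Tnfrsf10b was lowest in control 1, with 0.0585 CPM against 0.327 to 0.391 (0.840), Tnfrsf13c highest in control 3, with 0.109 against 0.0559 to 0.0585 (0.949), and Tnfsf13b highest in control 1, with 0.760 against 0.436 to 0.452 (0.942). Tnfsf9 was highest in asymptomatic 4, with 0.0646 CPM from a single count against 0 in the other four (1.0).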

How the results depend on the processing

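Of 29 members, 18 were called in AIH against control livers, and 18 to 21 under other scalings, filters, tools and terms, where the fit without a filter tested 41 members. Females alone (4 AIH, 2 control) gave 5 calls and males alone (1 AIH, 2 control, with the lone liver assumed to vary like the other groups) gave 6, and leaving out single libraries gave 14 to 22. Fewer members, 24 or 25, passed the filter without AIH 1, 2, 3 or 4. In asymptomatic against control livers 0 members were called, limma-voom gave 2 (beside 1299 of 14638 genes), and leaving out libraries gave 0 to 0. In AIH against asymptomatic livers 22 were called, 14 with only the 2 groups in the fit (23 tested), 11 with sex as a term, 13 in males alone, 5 with the unaligned share as a term, and 15 to 21 without single libraries. The sign turned for members not called. Fas in AIH against control was -0.0225 without a filter, -0.103 with limma-voom, -0.115 with sex as a term, -0.134 in females, -0.135 in males, -0.0574 with the unaligned share as a term, and -0.1997 to 0.258 without single libraries (below 0 without control 1, control 3 or AIH 2). Fas in AIH against asymptomatic was -0.0159 with sex as a term, -0.027 in males and -0.117 with the unaligned share. Tnfrsf1a in AIH against asymptomatic was -0.0516 with sex as a term and -0.299 in males. The cause was not tested. Females alone could not be set against asymptomatic livers, which were all male. No paired analysis was possible because replicate numbers follow accession order only. Members under about 10 counts a library stay imprecise at this depth.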
